A study of Mus musculus with 12 samples.

Results

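The genes described here are 29 mouse genes that encode pore and auxiliary subunits of voltage-gated sodium channels, voltage-gated calcium channels and HCN channels, together with the sodium leak channel Nalcn and its partners. They were taken by symbol from a table of 55401 gene IDs, without the subunits shared with AMPA receptors, and all 29 passed the filter on low counts that kept 21958 genes. RNA came from the medial prefrontal cortex of male mice that had spent 2 weeks in the extinction phase of a morphine conditioned place preference procedure. In it, an animal given the drug first learns and then loses a preference for a drug-paired chamber. Each of 3 groups had 4 libraries. The first group received an adeno-associated virus (AAV) with a scramble sequence and saline (AAV-Scramble-Saline, called saline below). The second received the same scramble virus and morphine (AAV-Scramble-Morphine, called morphine). The third received a virus against the serotonin receptor 5-HT6R and morphine (AAV-5-HT6Rkd-Morphine, called knockdown). All 3 groups therefore carried a virus, and knockdown without morphine was not part of the design. The study asked which targets lie downstream of lower 5-HT6R during extinction.

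Sodium channels of the Scn family open when the membrane depolarizes and carry the upstroke of the action potential. Calcium channels of the Cacna1 family turn depolarization into calcium entry: the high-voltage types feed transmitter release and gene regulation, and the low-voltage (T-type) channels open near rest and favour bursts. HCN channels open on hyperpolarization, carry a mixed cation current and set how dendrites of cortical pyramidal cells sum their inputs. Nalcn carries a background sodium leak. Beta and alpha2delta subunits bring the pores to the membrane and tune their gating. Most of these genes are expressed mainly in neurons, so in bulk tissue fewer cells of a type and less RNA per cell cannot be told apart.

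Library totals ran from 41483220 to 65739423 counts, and the 29 channel genes took between 0.380 and 0.433% of each library. Levels are given in CPM, counts divided by the scaled library size, and are compared between genes only as CPM per kb of exon sequence. The labels do not say whether each library is a separate animal. P-values therefore reflect only how far these samples differ, and some of that spread may be technical. The labels give neither the promoter that drove the viral insert nor the cells it reached. Htr6, the gene of 5-HT6R, stood between 4.35 and 7.98 CPM with saline, 4.82 and 5.58 with morphine and 3.82 and 5.46 with knockdown. The groups overlapped, and the knockdown libraries differed from morphine in Htr6 by -0.13 on the log2 scale (SE 0.18, edgeR adjusted p = 0.823). From saline, morphine differed in Htr6 by -0.24 (SE 0.18, edgeR adjusted p = 0.999) and knockdown by -0.37 (SE 0.18, edgeR adjusted p = 0.560). The share of counts at CT010467.1, a locus that collects ribosomal RNA reads, was 3.58 to 5.63% with saline, 2.38 to 3.04% with morphine and 4.57 to 9.38% with knockdown. Every morphine library lay below every library of the other groups. Fits below that use this share as a covariate therefore cannot fully separate it from the morphine group.

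Levels per length spanned a wide range, and auxiliary subunits led the order. The length is that of all annotated exons of a gene together, from 3.2 kb in Hcn2 to 25.2 kb in Cacna1e. The order depends on this length, and the transcripts present in the tissue may be shorter. Over the 12 libraries the median channel gene stood at 13.2 CPM per kb, against 2.46 for all genes kept, and 27 of the 29 lay above that median. Scn2b, a sodium channel beta subunit that links to the pore by a disulfide bond, averaged 53.9 CPM per kb. Cacnb3, a cytoplasmic calcium channel beta subunit, averaged 53.7. The ranges of these 2 genes over the libraries overlapped, and so did those of nearly all neighbours in the order. The exceptions were Cacnb2 above Hcn4 and Hcn4 above Scn9a, at the bottom of the list.

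Among the sodium channel pores, Scn2a and Scn8a were the most abundant per length, at 26.9 and 23.8 CPM per kb. Scn2a encodes Nav1.2, the sodium channel of excitatory neurons, and Scn8a encodes Nav1.6, which gathers at the axon initial segment. Scn1a, which encodes the Nav1.1 channel that fast-spiking interneurons depend on, averaged 9.91 CPM per kb. Scn3a, a channel known best from the developing brain, averaged 3.80. Scn9a, the Nav1.7 channel of pain-sensing neurons, was the lowest channel gene at 0.190 CPM per kb. Scn3a, Scn2a, Scn1a and Scn9a lie in 1 cluster on chromosome 2 (65457118 to 66634962, mm10). The other beta subunits, Scn3b and Scn4b, averaged 20.4 and 8.50 CPM per kb, and Scn2b and Scn4b are neighbours on chromosome 9.

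Among the high-voltage calcium channel pores, Cacna1a (P/Q-type), Cacna1b (N-type) and Cacna1e (R-type) averaged 18.7, 16.1 and 14.1 CPM per kb. The L-type pores Cacna1d and Cacna1c were lower, at 6.80 and 5.44. The T-type pores Cacna1g, Cacna1i and Cacna1h averaged 15.9, 13.2 and 9.71. Of the beta subunits, Cacnb1 and Cacnb4 followed Cacnb3 at 33.2 and 24.3, and Cacnb2 was the lowest at 3.15. The alpha2delta subunits Cacna2d1, Cacna2d3 and Cacna2d2 averaged 16.8, 7.27 and 5.07. Cacna2d1 encodes a subunit that gabapentin binds. Hcn2 stood highest of the HCN genes at 35.4, far above Hcn3 at 5.18 and Hcn4, the pacemaker channel of the heart, at 0.904. In the NALCN complex the scaffold gene Unc80 averaged 20.8, the pore gene Nalcn 7.56 and Unc79 5.70.

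**Figure D1:**
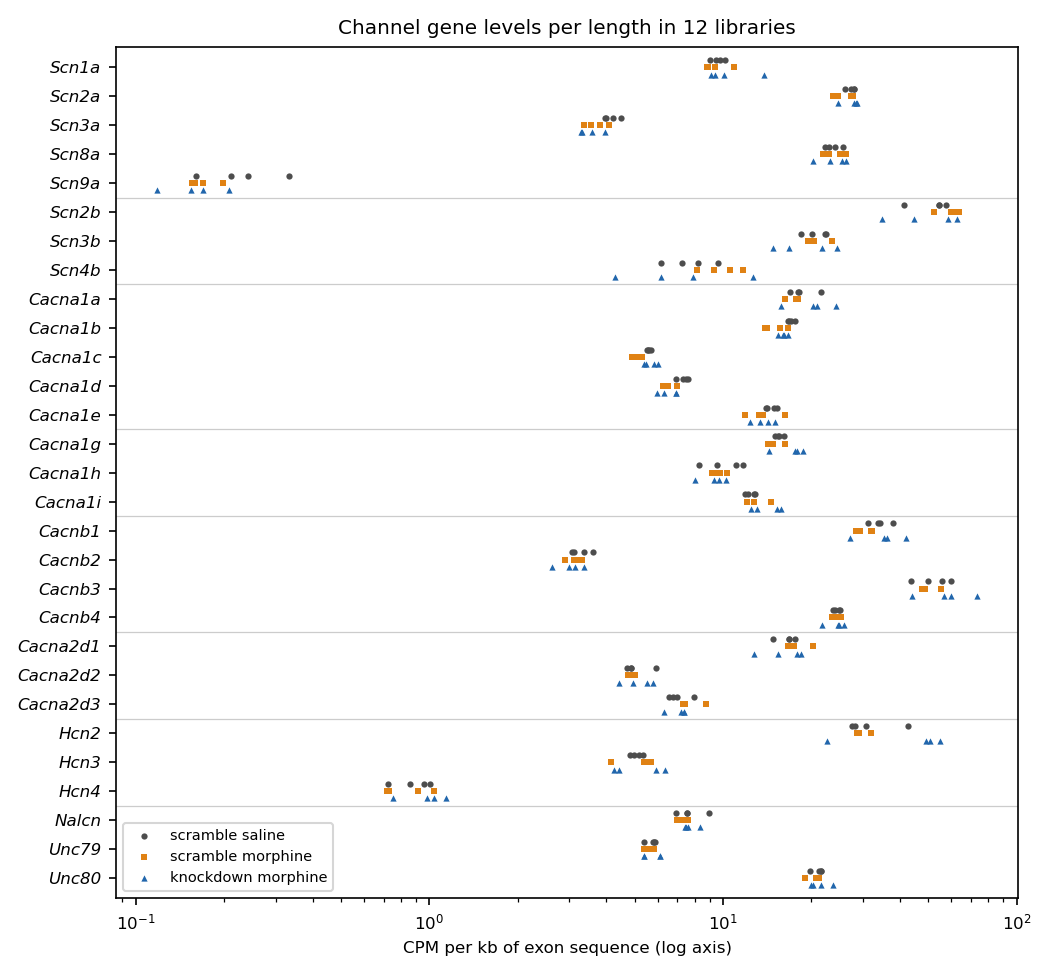
Level of each channel gene in each of the 12 libraries, in CPM per kb of exon sequence on a log axis; circles are scramble saline, squares scramble morphine and triangles knockdown morphine, and grey lines separate the subunit families. Scn9a and Hcn4 lie apart at the low end, and Hcn2 has 3 knockdown libraries above all others and the remaining one lowest.

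The channel genes are long and differ widely in base composition. Their median span on mm10 was 155 kb, against 15.6 kb for all genes kept, and 19 of the 29 spanned at least 100 kb. GC content of the longest transcript ran from 39.0% in Cacnb2 to 65.4% in Hcn2, with a median of 50.3%, against 49.2% for all genes kept. Exons of 9 channel genes overlap an annotated gene on the opposite strand, among them Cacna1a, Cacna1d, Cacnb1 and Scn9a. Whether counting used the strand is not given in the sources used here, so reads of those overlaps may be mixed.

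The RefSeq table (GRCm38.p6) held 33 promoters for 23 of the 29 genes. The 250 bases before a start site, the one whose window holds a marked motif where a gene has several, are shown for Hcn2, Cacnb1 and Cacnb3, whose transcripts are rich in GC and whose levels split the knockdown libraries, and for Scn2a, which is poorer in GC, as a contrast. Each is printed 5′ to 3′ on the strand of its gene. Capitals mark the GC box, GGGCGG or its reverse complement, in the first 3 and the TATA box, TATAAA, in Scn2a.
Hcn2, chr10:79716384-79716633, plus strand: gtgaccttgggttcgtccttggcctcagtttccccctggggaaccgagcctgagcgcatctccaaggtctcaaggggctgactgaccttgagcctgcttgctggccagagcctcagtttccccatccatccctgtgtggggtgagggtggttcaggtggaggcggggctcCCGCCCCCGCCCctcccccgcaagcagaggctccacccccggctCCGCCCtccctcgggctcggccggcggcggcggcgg
Cacnb1, chr11:98022628-98022877, minus strand: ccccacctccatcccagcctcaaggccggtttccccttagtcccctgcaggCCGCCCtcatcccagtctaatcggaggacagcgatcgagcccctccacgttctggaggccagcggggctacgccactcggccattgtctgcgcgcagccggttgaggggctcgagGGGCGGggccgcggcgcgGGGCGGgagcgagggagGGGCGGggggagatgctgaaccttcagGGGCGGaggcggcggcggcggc
Cacnb3, chr15:98634517-98634766, plus strand: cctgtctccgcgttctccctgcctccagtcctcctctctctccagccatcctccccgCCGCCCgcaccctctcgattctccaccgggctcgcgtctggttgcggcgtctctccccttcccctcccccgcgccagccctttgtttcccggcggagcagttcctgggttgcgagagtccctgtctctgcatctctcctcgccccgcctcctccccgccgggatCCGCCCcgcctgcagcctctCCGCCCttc
Scn2a, chr2:65668436-65668685, plus strand: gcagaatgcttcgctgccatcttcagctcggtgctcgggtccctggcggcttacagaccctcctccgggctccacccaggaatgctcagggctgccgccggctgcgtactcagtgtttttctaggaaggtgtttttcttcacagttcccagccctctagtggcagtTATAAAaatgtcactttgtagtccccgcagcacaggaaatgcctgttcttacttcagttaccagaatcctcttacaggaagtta
The Hcn2 window held 3 GC boxes at 70.4% GC, the Cacnb1 window 5 at 73.2% and the Cacnb3 window 3 at 70.4%, while the Scn2a window held 1 TATA box at 53.2% GC. The choice of windows by motif shapes this contrast. Another promoter of Cacnb1 and another of Cacnb3 had 56.0% GC and no GC box. Another Scn2a promoter had 29.6% GC and no TATAAA. Searched on either strand, the GC box was present in 12 of the 33 channel promoters (36.4%), against 32.7% of all 32851 promoters of that length. TATAAA was in 2 of 33 (6.06%), those of Cacna1d and Scn2a, against 12.4%. The cAMP response element TGACGTCA was in 0 of 33, against 1.55%. Of the RE1 element bound by the neuronal repressor REST, the left part TTCAGCACC was in 0 of 33, against 0.301%. Its right part GGACAGC was in 1 of 33 (3.03%), that of Cacnb1, against 5.28%. These matches are letters in a window and are not measured binding.

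Morphine was compared with saline under the scramble virus to ask what remained after extinction. High-voltage calcium channel pores stood slightly lower with morphine: all 5 had a log2 fold change below 0, with a median of -0.14. All 4 calcium channel beta subunits and all 3 genes of the NALCN complex also lay below 0, with medians of -0.06 and -0.07. The 3 sodium channel beta subunits all lay above 0, with a median of 0.19. That direction was not kept with the CT010467.1 share of each library as a covariate, where Scn4b turned from 0.35 to -0.09, Scn2b was 0.06 and the median 0.02. The high-voltage pores lay below 0 under all 24 alternatives run, while 1 or 2 calcium channel beta subunits lay above 0 with scaling by library totals only, with the replicate number as a block and without morphine replicate 3 or saline replicate 4. With that block 1 gene of the NALCN complex lay above 0. None of these differences passed the test. With edgeR's quasi-likelihood test and Benjamini-Hochberg adjustment over all 21958 genes, 0 of 29 channel genes were called. Of all genes 0 were called as well (0.0%) at an adjusted p under 0.05, and 366 were higher and 399 lower at an unadjusted one. DESeq2 and limma voom also called 0 channel genes, and 4 and 0 of all genes.

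Over the 29 channel genes, 21 were below 0 and 8 above, and the median was -0.06 on the log2 scale. Of all genes, 50.5% were below 0, and their median was -0.0012. At an unadjusted p under 0.05, 4 channel genes were lower (Cacna1b, Cacna1c, Cacna1d and Scn3a) and 0 were higher, where 1.82% of all genes were lower and 1.67% higher. The shift was not shared by all morphine libraries. In morphine replicates 1 and 3, 2 and 5 of the 29 genes were above their own mean over the 12 libraries, and the median deviation was -0.09 and -0.12 on the log2 scale. In morphine replicates 4 and 5, 21 and 17 genes were above their mean, as many as or more than the 15 to 17 in the saline libraries. The median was -0.03 without morphine replicate 3 and -0.10 without morphine replicate 4.

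The summed levels of some cell type marker lists divided the same libraries. The summed level of 8 general neuron markers was 5714 and 6015 CPM in morphine replicates 1 and 3 and 6324 and 6331 in replicates 4 and 5, beside 5907 to 6292 with saline. The summed level of 9 oligodendrocyte markers was 2416 and 2581 CPM in replicates 1 and 3, and 1895 and 1927 in replicates 4 and 5. For 8 microglia markers the sums were 714 and 609 CPM in replicates 1 and 3, against 489 and 506. The summed level of the channel genes was 3858 and 3907 CPM in the first pair and 4321 and 4236 in the second. Sums of excitatory neuron markers were 5051 and 5119 CPM in replicates 1 and 3 and 5465 and 5384 in replicates 4 and 5. Astrocyte markers summed to 5291 and 5197 CPM in replicates 1 and 3, and to 4527 and 5156 in replicates 4 and 5. For oligodendrocyte precursor markers the sums were 149 and 151 CPM, against 135 and 148. In both lists replicate 5 lay close to the first pair. Other lists did not divide the libraries this way. Interneuron markers summed to 751, 739, 752 and 749 CPM in replicates 1, 3, 4 and 5. Endothelial markers summed to 247, 247, 209 and 250, and pericyte and smooth muscle markers to 246, 230, 209 and 250. The part of these markers in the channel result was not tested.

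Cacna1c, the Cav1.2 L-type pore that couples calcium entry to transcription, was the channel gene whose groups separated. It stood at 118, 119, 120.1 and 117 CPM in the saline libraries (replicates 2, 3, 4 and 5, in this order throughout) and at 104, 105, 112 and 109 in the morphine libraries (replicates 1, 3, 4 and 5). Every morphine library lay below every saline library. Its fitted log2 fold change was -0.14 (SE 0.05, unadjusted p = 0.0189, edgeR adjusted p = 0.999), a fold of 0.907 with a 95% interval of 0.838 to 0.982. Groups that did not overlap in either direction made up 3.32% of all genes, close to 1 of 29.

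Cacna1b, the N-type pore of presynaptic terminals, stood at 169.5, 167, 175 and 165 CPM with saline and 141, 138, 166 and 155 with morphine. Morphine replicates 1 and 3 were low, and replicate 4 reached the saline range. Its log2 fold change was -0.18 (SE 0.06, unadjusted p = 0.0123, edgeR adjusted p = 0.999). Cacna1d, the Cav1.3 L-type pore that opens at more negative voltages, stood at 87.3, 92.1, 95.7 and 94.6 CPM with saline and 82.0, 78.9, 88.1 and 81.7 with morphine. Again replicate 4 was the morphine library within the saline range. For Cacna1d the log2 fold change was -0.16 (SE 0.06, unadjusted p = 0.0223, edgeR adjusted p = 0.999).

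Scn3a stood at 52.7, 49.4, 56.2 and 49.6 CPM with saline and 44.2, 42.0, 50.8 and 47.4 with morphine, so that replicate 4 alone overlapped saline. The log2 fold change was -0.17 (SE 0.08, unadjusted p = 0.0457, edgeR adjusted p = 0.999). Scn9a was low throughout, at 4.25, 2.70, 2.05 and 3.09 CPM with saline and 2.17, 1.99, 2.53 and 2.04 with morphine. Saline replicate 2 was its highest library, and the groups overlapped. The Scn9a log2 fold change of -0.47 (SE 0.24, unadjusted p = 0.0642, edgeR adjusted p = 0.999) became -0.26 without that library.

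A set of 4 well known members, named whatever their values, had overlapping groups. Scn2a stood at 348, 331, 357 and 355 CPM with saline and 302, 313, 354 and 348 with morphine, a log2 fold change of -0.08 (SE 0.07) that was -0.04 without morphine replicate 1. Cacna1a, the P/Q-type pore of fast transmitter release, stood at 193, 206, 247 and 207 CPM with saline and 185, 186, 202 and 206 with morphine, a log2 fold change of -0.13 (SE 0.11) that was -0.06 without saline replicate 4. Hcn2 stood at 88.1, 97.8, 137 and 90.1 CPM with saline and 91.5, 92.8, 102 and 91.4 with morphine. Saline replicate 4 was high, and the log2 fold change of -0.13 (SE 0.24) became 0.04 without it. Nalcn stood at 111, 102, 132 and 111 CPM with saline and 104, 102, 107 and 112 with morphine, a log2 fold change of -0.10 (SE 0.07) that was -0.02 without saline replicate 4. The edgeR adjusted p was 0.999 for these 4 genes.

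**Figure D2:**
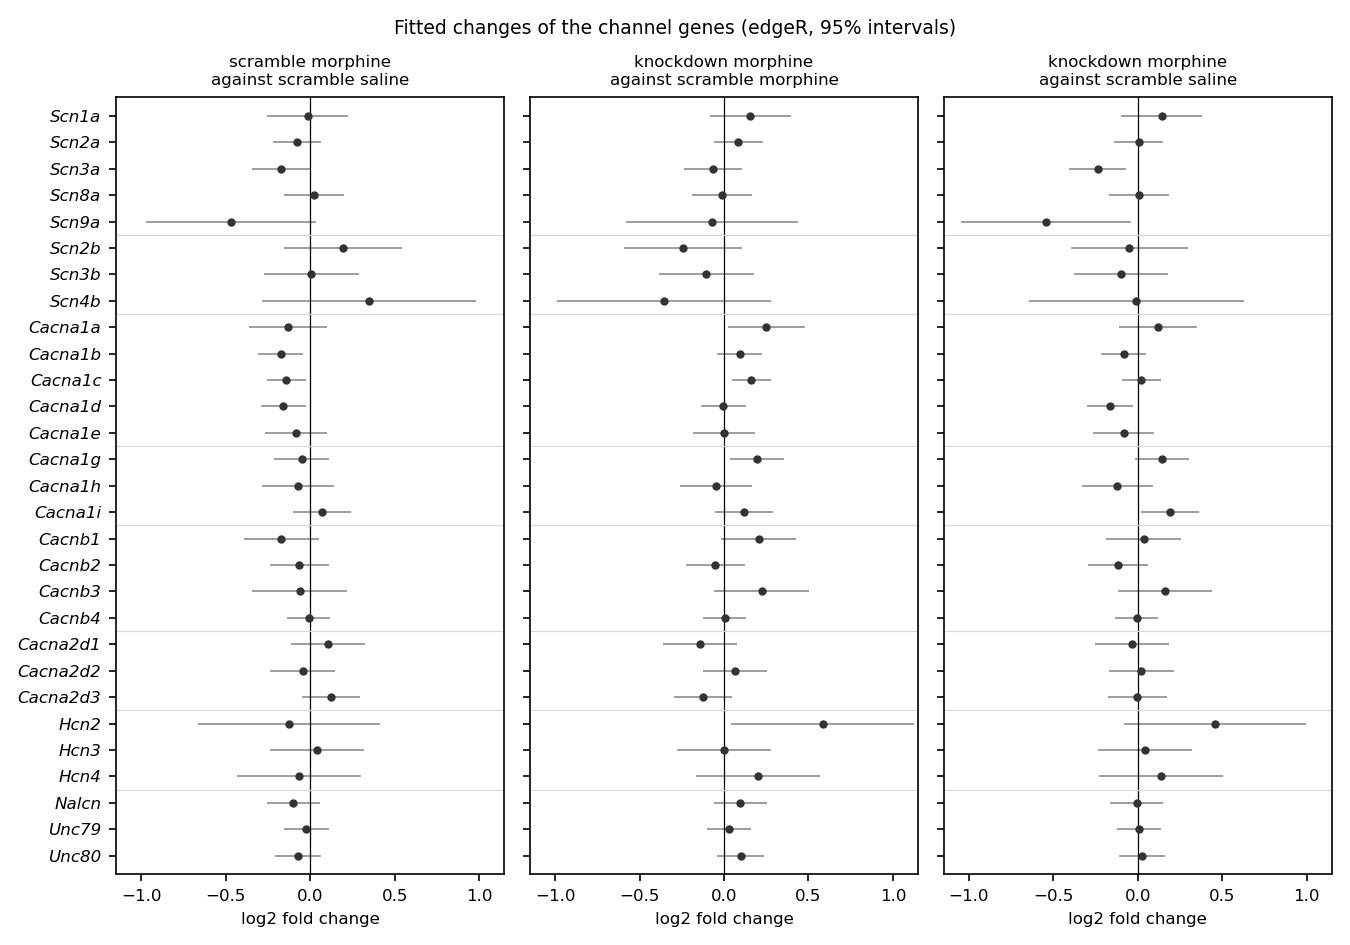
Fitted log2 fold change of each channel gene (point) with its 95% interval (line) in the 3 comparisons, from edgeR's quasi-likelihood fit to all 12 libraries; grey lines separate the subunit families. No gene passed the adjusted threshold, and most intervals span 0; Hcn2, Scn4b and Scn9a have the widest.

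Knockdown was compared with scramble under morphine to ask what differs with the virus against 5-HT6R. Hcn2, Cacna1a, Cacna1g and Cacna1c were higher with knockdown at an unadjusted p under 0.05, and 0 channel genes were lower. None passed the adjusted threshold: edgeR, DESeq2 and limma voom each called 0 of the 29. With edgeR 0 of all genes were called (0.0%), with DESeq2 164 and with limma voom 0. At the unadjusted level 1288 of all genes were higher (5.87%) and 1355 lower (6.17%), beside 4 and 0 of the 29 channel genes. The median over the 29 genes was 0.03, with 16 above 0 and 13 below. Of all genes 49.3% were below 0, and their median was 0.0040. This comparison and the one with saline share the 4 morphine libraries, so the values of a gene in them are not independent.

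By family, all 3 sodium channel beta subunits lay below 0 (median -0.24) and all 3 genes of the NALCN complex above (median 0.10). With the CT010467.1 share as a covariate Scn4b turned from -0.35 to 0.39, Scn2b was -0.01 and the beta subunit median -0.01, and without knockdown replicate 3 Scn3b turned to 0.00. In the NALCN complex 1 of the 3 genes lay below 0 with library totals and without knockdown replicate 2 or 5. The HCN genes had a median of 0.20, the T-type pores 0.12, the calcium channel beta subunits 0.10 and the high-voltage pores 0.09. The sodium channel pores stood near 0 (median -0.01), and the alpha2delta subunits below it (median -0.12). Fold intervals of single genes were wide enough that changes of up to 2.18-fold higher and 0.504-fold remained inside them. These outer limits came from Hcn2 and Scn4b.

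Hcn2, the most abundant of the 3 HCN genes, had the highest fold change. It stood at 162, 157, 176 and 72.1 CPM with knockdown (replicates 1, 2, 3 and 5), against 91.5, 92.8, 102 and 91.4 with morphine. Knockdown replicates 1, 2 and 3 lay above all 8 scramble libraries, and replicate 5 lay below all of them. This gave a log2 fold change of 0.58 (SE 0.24, unadjusted p = 0.0370, edgeR adjusted p = 0.387), a fold of 1.50 with a 95% interval of 1.03 to 2.18.

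Cacna1a followed the same order of libraries, at 239, 231, 277 and 180.1 CPM with knockdown against 185, 186, 202 and 206 with morphine. Knockdown replicate 5 was again the lowest library of all 12. The log2 fold change was 0.25 (SE 0.11, unadjusted p = 0.0341, edgeR adjusted p = 0.379), and 0.15 without knockdown replicate 3. Cacna1g, the Cav3.1 T-type pore, stood at 181, 190.3, 178 and 146 CPM with knockdown and 150.3, 144, 165 and 147 with morphine. Its first 3 knockdown libraries lay above every morphine library and replicate 5 within their range. For Cacna1g the log2 fold change was 0.20 (SE 0.08, unadjusted p = 0.0207, edgeR adjusted p = 0.350).

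Cacnb1 stood at 159.8, 190.1, 163 and 122 CPM with knockdown and 132, 144, 145 and 129 with morphine. Knockdown replicate 5 lay below all morphine libraries while the others lay above them. The fit gave a log2 fold change of 0.21 (SE 0.10, unadjusted p = 0.0670, edgeR adjusted p = 0.445), which was 0.11 without knockdown replicate 2 (adjusted p = 0.665) and 0.14 with library totals. Cacnb1 is known best as the skeletal muscle beta subunit and is also expressed in brain.

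In Cacna1c the knockdown libraries stayed together. It stood at 127, 123, 116 and 114 CPM with knockdown, all above the morphine libraries at 104 to 112. The log2 fold change was 0.16 (SE 0.05, unadjusted p = 0.00871, edgeR adjusted p = 0.315), a fold of 1.12 with a 95% interval of 1.03 to 1.21. It was the 1 channel gene whose groups did not overlap, where 5.85% of all genes did not. With the CT010467.1 share of each library as a covariate the value for Cacna1c was 0.07 and that for Cacna1g 0.08, and with library totals they were 0.09 and 0.13.

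Scn2a stood at 313, 362, 365 and 357 CPM with knockdown, within or just above the morphine range. It differed from morphine by 0.08 (SE 0.07, edgeR adjusted p = 0.653), by 0.05 without morphine replicate 1 and by 0.13 without knockdown replicate 1. Nalcn stood at 111, 111, 123 and 109 CPM with knockdown and overlapped morphine. It differed from morphine by 0.10 (SE 0.07, edgeR adjusted p = 0.639), and by 0.05 without knockdown replicate 3. With the CT010467.1 share as a covariate the values were 0.23 for Scn2a and 0.22 for Nalcn, and with library totals 0.02 and 0.03.

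**Figure D3:**
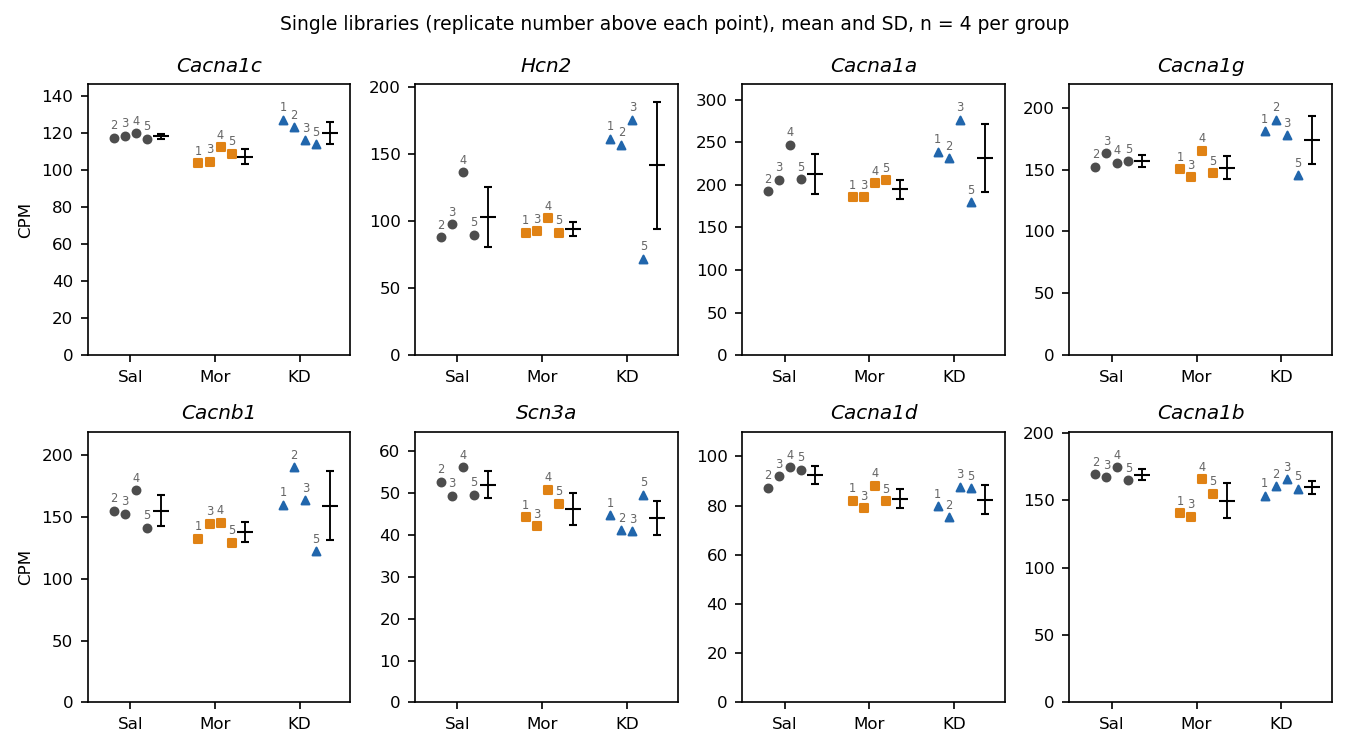
CPM of 8 channel genes in single libraries, with the replicate number above each point, and the group mean with its SD (n = 4 per group) beside them; Sal is scramble saline, Mor scramble morphine and KD knockdown morphine. Knockdown replicate 5 sits below the other 3 knockdown libraries for Hcn2, Cacna1a, Cacna1g and Cacnb1, and above them for Scn3a, while Cacna1c has all knockdown libraries above all morphine libraries.

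Leaving out knockdown replicate 5 changed the calls. Without it, 3 of 29 channel genes were called higher with knockdown than with morphine, where 0.958% of 22537 genes were called higher. Hcn2 then had a log2 fold change of 0.80 (SE 0.12, edgeR adjusted p = 0.0173). For Cacna1g it was 0.27 (SE 0.06, edgeR adjusted p = 0.0375) and for Cacna1a 0.35 (SE 0.08, edgeR adjusted p = 0.0496). Cacnb1 and Cacna1c then missed the threshold, with adjusted p-values of 0.0586 and 0.0851. These calls rest on 3 knockdown libraries, and leaving out any of the other 11 libraries gave 0 channel genes called.

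The split of knockdown replicate 5 from the other knockdown libraries followed GC content. Of the 10 channel genes in the top 20% of transcript GC content (at least 55.5%), it lay below the other 3 knockdown libraries in 7 and above them in 0. The 7 were Hcn2, Cacnb3, Cacnb1, Cacna1i, Cacna1a, Cacna1g and Hcn4. Of the 7 channel genes in the bottom 20% (at most 43.8%), it lay above in 5 (Scn9a, Scn3a, Cacna2d1, Cacnb4 and Cacnb2) and below in 0. Among all other genes of at least 1 CPM, it lay below in 56.0% of the top 20% and above in 43.9% of the bottom 20%. Over the 29 channel genes, GC content and the log2 difference of replicate 5 from the other 3 had a Pearson r of -0.75 and a Spearman rho of -0.74, and over 15936 other genes r was -0.22 and rho -0.35. All genes share these 4 libraries, so the coefficients describe the libraries and carry no test.

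How far levels followed GC content in each library was also measured without the channel genes. The median deviation of other genes in the top 20% of GC content minus that in the bottom 20%, called the GC tilt here, was 0.12, 0.11 and 0.09 on the log2 scale in knockdown replicates 1, 2 and 3 and -0.21 in replicate 5. In the 8 scramble libraries it lay between -0.07 and 0.06, and saline replicate 4, the highest saline library for Hcn2 and Cacna1a, had the highest of these. No knockdown library had a tilt within the range of the scramble libraries. A fit with the tilt as a covariate therefore cannot fully separate it from the knockdown group. With the GC tilt as a covariate, an alternative added once the data had been seen, 0 channel genes were called. The log2 fold change of Hcn2 between knockdown and morphine was then 0.32 (SE 0.08, edgeR adjusted p = 0.174), that of Cacna1a 0.17 (SE 0.08, adjusted p = 0.408), that of Cacnb1 0.12 (SE 0.06, adjusted p = 0.471) and that of Cacna1c 0.14 (SE 0.05, adjusted p = 0.275). For Cacna1g the alternatives other than leaving 1 library out, with the GC tilt among them, gave values between 0.08 and 0.21. Over the 29 genes, the log2 fold change of knockdown against morphine had a Pearson r of 0.50 with GC content, and over other genes 0.05. The cause of the tilt and of the split in the channel genes was not tested.

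**Figure D4:**
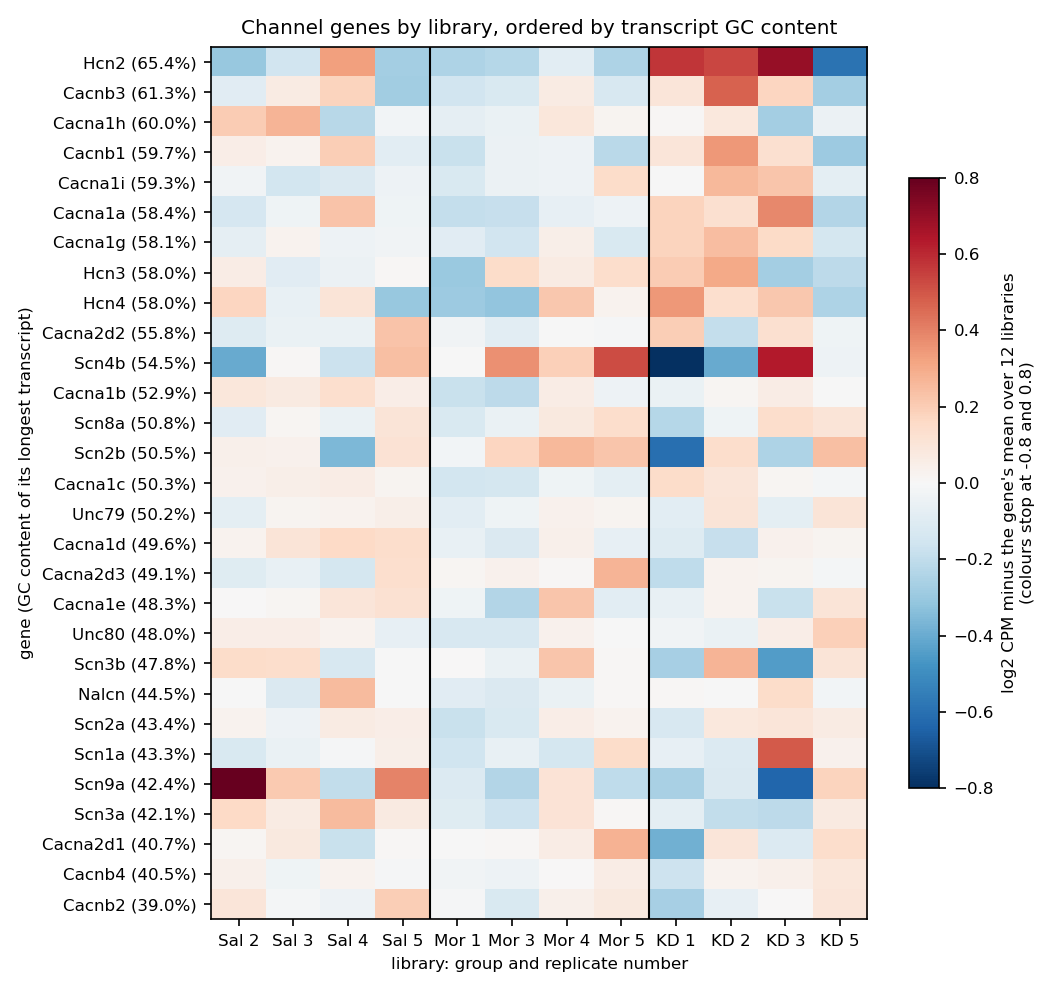
Log2 CPM of each channel gene in each library minus the mean of that gene over the 12 libraries, with genes ordered from the highest transcript GC content (65.4%, Hcn2) to the lowest (39.0%, Cacnb2); Sal, Mor and KD are the groups and the numbers are replicates. Knockdown replicate 5 is low at the GC-rich top and slightly high at the GC-poor bottom, and morphine replicates 1 and 3 are low across most rows.

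**Figure D5:**
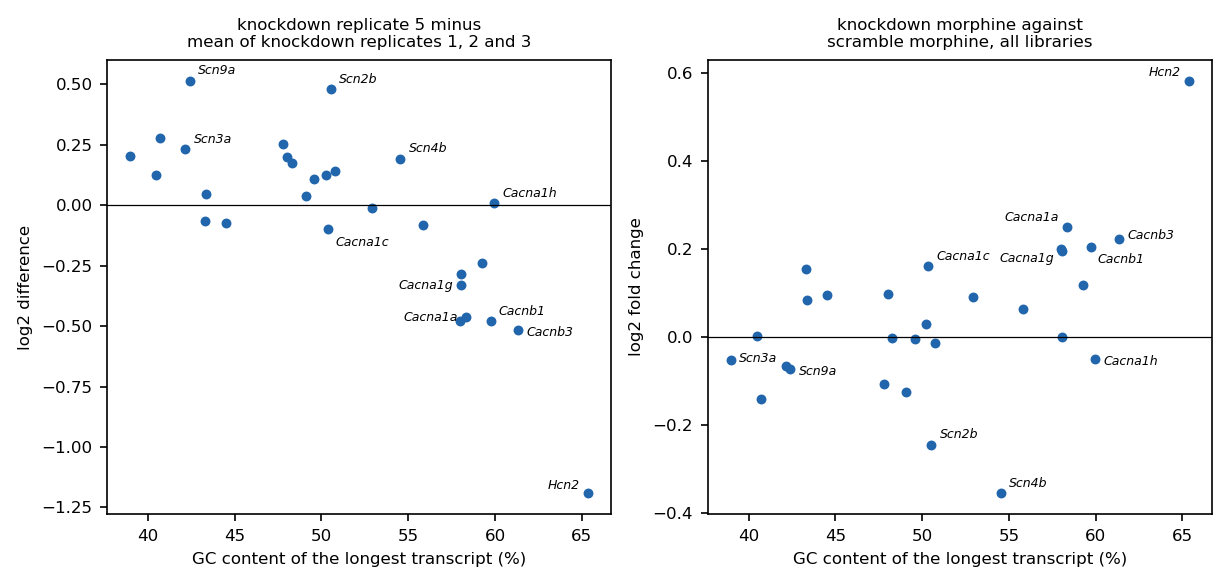
GC content of the longest transcript of each of the 29 channel genes against 2 quantities: on the left, the log2 difference between knockdown replicate 5 and the mean of the other 3 knockdown libraries, and on the right, the log2 fold change of knockdown against scramble morphine over all libraries. Points run down to the right on the left panel (r = -0.75) and up on the right panel (r = 0.50), with Hcn2 at the far end of each.

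Knockdown with morphine was also compared with scramble saline, groups that differ in virus and drug together. Scn3a, Cacna1d and Scn9a were lower and Cacna1i higher at an unadjusted p under 0.05, and none passed the adjusted threshold. Of 29 channel genes 0 were called by edgeR, DESeq2 or limma voom, and edgeR called 3 of all genes (0.0137%). At the unadjusted level 960 of all genes were lower (4.37%) and 1092 higher (4.97%). The median over the 29 genes was 0.01, with 15 above 0 and 14 below, against -0.0019 over all genes, 50.4% of which were below 0. In 0 channel genes were the groups free of overlap, against 4.34% of all genes.

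Scn3a stood at 44.7, 41.1, 40.8 and 49.6 CPM with knockdown, against 49.4 to 56.2 with saline. Knockdown replicate 5 alone overlapped the saline range. Fitted over all libraries, its log2 fold change was -0.24 (SE 0.08, unadjusted p = 0.00919, edgeR adjusted p = 0.378), a fold of 0.848 with a 95% interval of 0.754 to 0.954. Cacna1d stood at 79.7, 75.4, 87.6 and 87.0 CPM with knockdown and overlapped saline in replicate 3. Its log2 fold change was -0.16 (SE 0.06, unadjusted p = 0.0198, edgeR adjusted p = 0.438).

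Cacna1i, the Cav3.3 T-type pore, stood at 129, 156, 151 and 123 CPM with knockdown and at 127, 117, 119.8 and 126 with saline. Replicates 1, 2 and 3 lay above the saline libraries and replicate 5 among them. The log2 fold change was 0.19 (SE 0.08, unadjusted p = 0.0325, edgeR adjusted p = 0.486). Cacna1g differed by 0.14 (SE 0.08, unadjusted p = 0.0747, edgeR adjusted p = 0.590), and by 0.09 with the CT010467.1 share as a covariate. Scn9a overlapped saline too, at 1.96, 2.16, 1.51 and 2.65 CPM with knockdown, a log2 fold change of -0.54 (SE 0.24, unadjusted p = 0.0368, edgeR adjusted p = 0.502) that became -0.33 without saline replicate 2.

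Hcn2 differed from saline by 0.46 (SE 0.24, unadjusted p = 0.0891, edgeR adjusted p = 0.613), with 3 knockdown libraries above all saline libraries. Without knockdown replicate 5 it was the 1 channel gene called, at 0.67 (SE 0.12, edgeR adjusted p = 0.0489), where 0.182% of all genes were called higher. With the GC tilt as a covariate Hcn2 differed by 0.29 (SE 0.08, edgeR adjusted p = 0.219). Cacna1a differed by 0.12 (SE 0.11, edgeR adjusted p = 0.782), and by 0.02 to 0.22 with 1 library left out, the lowest without knockdown replicate 3 and the highest without replicate 5. Scn2a and Nalcn differed from saline by 0.01 and -0.00 on the log2 scale (SE 0.07 for each). The 95% interval of the fold was 0.909 to 1.11 for Scn2a and 0.894 to 1.11 for Nalcn.

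Other members spread widely over the libraries of all 3 groups together, or hardly at all. Scn4b, a beta subunit tied to resurgent sodium current, ran from 21.3 CPM in knockdown replicate 1 to 63.1 in knockdown replicate 3, the widest span of the 29 genes (2.96-fold), and Scn9a followed (2.81-fold). Scn2b ran from 163 to 297 CPM, with its lowest value in knockdown replicate 1 too. Scn1a stood at 154 CPM in knockdown replicate 3 and between 98.1 and 122 in the other 11 libraries. Unc79 was the steadiest, at 76.7 to 87.3 CPM (1.14-fold), followed by Cacnb4 (1.19-fold) and Scn2a (1.21-fold).

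Genes that work with these channels gave no call either. Of 8 sodium channel and axon initial segment partners, 8 were kept and 0 were called in any comparison. Ank3, which encodes the ankyrin-G anchor of sodium channels, had the smallest p of that list in both knockdown comparisons, at 0.16 (SE 0.08, edgeR adjusted p = 0.442) against morphine and 0.12 (SE 0.08, adjusted p = 0.670) against saline. Fgf11, an intracellular fibroblast growth factor homologous factor, had it between morphine and saline, at 0.21 (SE 0.12). Of 8 calcium channel regulators, 8 were kept and 0 called. Rimbp2, which tethers calcium channels at release sites, differed by 0.14 (SE 0.07, adjusted p = 0.441) between knockdown and morphine.

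Rem1, a small GTPase of the family that inhibits high-voltage calcium channels, was measured at only 0.225 to 1.46 CPM. It differed by 0.79 (SE 0.49) between morphine and saline and by 1.31 (SE 0.49, edgeR adjusted p = 0.424) between knockdown and saline. Of 13 other genes of the channel families, 10 were kept and 0 called. Cacna1f, the retinal L-type pore, differed by 0.65 (SE 0.43) between morphine and saline and by -0.85 (SE 0.44, adjusted p = 0.448) between knockdown and morphine, at 0.230 to 1.57 CPM. Scn7a, a sodium sensor of glia, differed by 0.28 (SE 0.17, adjusted p = 0.634) between knockdown and saline.

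Marker lists place these values in the tissue. Slc17a7 of excitatory neurons stood at 1565 to 2007 CPM, Rbfox3 of neurons at 194 to 298 and Gad1 of interneurons at 202 to 233. Ttr of choroid plexus was at or near 0 (0 to 0.611 CPM). Between knockdown and morphine, 9 of 9 oligodendrocyte markers lay below 0 (median -0.34), and their summed level was 1219 to 2078 CPM with knockdown, 1895 to 2581 with morphine and 1789 to 2339 with saline. For microglia 7 of 8 lay below 0 (median -0.24), while 7 of 7 endothelial markers lay above (median 0.23), as did 7 of 7 of pericytes and smooth muscle (median 0.25). Of 9 excitatory neuron markers 7 lay below 0 (median -0.15). At an unadjusted edgeR p under 0.05, 2 of them were lower, beside 6.17% of all genes. In 3, all knockdown libraries lay below all morphine libraries, while 5.85% of all genes had groups without overlap in either direction. Also lower at that unadjusted p were 5 of 9 oligodendrocyte, 2 of 8 microglia and 2 of 8 general neuron markers. Higher were 3 of 7 endothelial and 3 of 7 pericyte and smooth muscle markers, beside 5.87% of all genes. Interneuron markers went both ways: 6 of 10 lay above 0 (median 0.07), with 2 higher and 2 lower at that unadjusted p. The groups did not overlap for 1 higher and 2 lower interneuron markers. General neuron markers had 3 of 8 above 0 (median -0.03) and summed to 5467 to 6409 CPM with knockdown, 5714 to 6331 with morphine and 5907 to 6292 with saline. Knockdown replicate 1 had the lowest neuron sum and also the lowest summed channel level of its group (3954 CPM). Between morphine and saline, 10 of 10 astrocyte markers lay above 0 (median 0.19) and 5 of 5 blood markers below (median -0.73). In all 12 lists 0 markers were called, and their part in the channel results was not tested.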

How the data were processed

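Gene counts for the 12 libraries were deposited by the authors as raw whole numbers from paired-end sequencing. Per the labels' protocols, RNA was poly(A)-selected and strand-marked with dUTP. The submitters' processing notes name mm10, HISAT2 2.0.4, cutadapt 1.9, edgeR, DESeq2 and StringTie 1.3.4d, with no role for any; which tool counted, and whether by strand, is not given in the sources used here. Groups came from the treatment labels and replicate numbers from the titles.

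The test was edgeR 4.0.16 (R 4.3.3): filterByExpr (minimum of 10 counts), TMM scaling, and a robust quasi-likelihood fit with 1 mean per group to all 12 libraries (biological coefficient of variation 23.2%, 9 residual degrees of freedom). Two-sided p-values were adjusted over all genes kept (Benjamini-Hochberg, threshold 0.05). CPM uses TMM-scaled sizes; exon lengths, spans and GC content come from GENCODE M21 on the mm10 assembly. Of 55401 gene IDs, 55141 matched a symbol. No libraries of a group agreed within sampling noise (smallest chi-square per gene 13.4). Steps were tested on simulated counts.

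Full values go to members called, to the 5 with the smallest p in each comparison, and to Scn2a, Cacna1a, Hcn2 and Nalcn; from each list of related genes, the 1 with the smallest p in each comparison. Scn4b, Scn2b, Scn1a, Unc79 and Cacnb4 were named as the widest or steadiest after their values were seen. The members and lists were chosen with earlier results of these data known. Alternatives were other scalings and filters, DESeq2 1.42.0, limma voom 3.58.1, the compared groups alone, the replicate block, the CT010467.1 share and, chosen after seeing the data, the GC tilt, and each library left out. Protein sequences were not used here.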

Additional observations from a re-analysis of the deposited data

Results flagged for a closer look

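In 87 sets of 4 libraries (29 genes in 3 groups), 6 held a library whose gap to its nearest neighbour was large for the range of its group, and chance gives about 1 in 20. Scn2a stood at 313 CPM in knockdown replicate 1, against 357 to 365 in the other knockdown libraries. Nalcn stood at 123 CPM in knockdown replicate 3, against 109 to 111. In the morphine group, replicate 4 was high for Cacnb3 (223 CPM, against 191 to 196) and for Hcn2 (102, against 91.4 to 92.8), and replicate 5 was high for Cacna2d3 (76.2, against 63.5 to 64.6). Cacna2d2 stood at 47.1 CPM in saline replicate 5, against 37.4 to 38.8. Hcn2 in knockdown replicate 5 (72.1 CPM, against 157 to 176) did not reach the limit for 4 libraries.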

How the results depend on the processing

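No channel gene was called between morphine and saline under 25 of 25 settings, and under 24 of 25 in each knockdown comparison. The exception was the fit without knockdown replicate 5, so that over the fits with 1 library left out the count ran from 0 to 3 between knockdown and morphine and from 0 to 1 between knockdown and saline. The median over the channel genes between knockdown and morphine was -0.036 with library totals only and 0.10 with the CT010467.1 share as a covariate. With the replicate number as a block, 0 channel genes were called in each comparison, and the medians were -0.03, 0.04 and 0.03; the block moved the calls of all genes to 1, 2 and 0. Deviations of 9 same-numbered pairs correlated only weakly, between -0.02 and 0.13, with 2 above 0.1. Still, 7 of 12 libraries correlated best with a library of their own number. These values do not settle whether the numbers pair the libraries. Over the 29 genes in 3 comparisons and 24 alternatives, 1910 of 2088 values kept their direction. The largest that turned was that of Scn4b, with the CT010467.1 share as a covariate: from -0.35 to 0.39 between knockdown and morphine and from 0.35 to -0.09 between morphine and saline. Of the 600 values for the 25 gene results given in full, 586 kept their direction. Those of the 25 that turned are given with their range over the fits with 1 library left out. Hcn2 between morphine and saline ran from -0.199 to 0.035, the latter without saline replicate 4. Scn2a between knockdown and saline was -0.041 with library totals only and -0.0048 with no filter, and ran from -0.019 to 0.051. Nalcn between knockdown and saline was 0.0066 with upper quartile scaling, 0.041 with the replicate block and 0.057 with the CT010467.1 share, and ran from -0.055 to 0.073. Their cause was not tested.

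Over all genes the counts of calls moved more. Between morphine and saline they were 4 with DESeq2 and 1 with the compared groups only. Between knockdown and morphine they were 164 with DESeq2, 2 with no filter and 0 to 375 with 1 library left out. Between knockdown and saline they were 147 with DESeq2, 5 with no filter and with the compared groups only, 0 with library totals, limma voom, the CT010467.1 share and the GC tilt, and 0 to 55 with 1 library left out. Precision was not ordered by level: Scn9a, Scn4b and Hcn2, at means of 2.42, 42.4 and 113 CPM, had standard errors of 0.24, 0.29 and 0.24 between knockdown and morphine.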
